A study of Sus scrofa with 4 samples.

Results

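Connexins and pannexins are the channel proteins through which keratinocytes exchange small molecules with their neighbours and with the space around them. The genes described here are the connexin genes GJA1, GJB2, GJB5 and GJB6 and the pannexin genes PANX1 and PANX3. They were taken by gene name as 6 of the 29837 named genes in a table of raw read counts. The set was proposed with earlier results of these data known. RNA had been sequenced from sorted epidermal cells of 2 juvenile pigs, 88R and 95R, each of which gave 1 library of LGR5-high cells and 1 of LGR5-negative cells, and the question was how the LGR5-expressing cells of the hair follicle differ from the rest of the epidermis. All 4 libraries came from LGR5-H2B-GFP pigs, in which a histone H2B-GFP fusion had been knocked into exon 1 of 1 LGR5 allele while the other allele was left intact. The line goes back to edited fetal fibroblasts that were grown as clonal colonies and used for nuclear transfer. LGR5-high cells were the brightest for GFP, LGR5-negative cells were all live epidermal cells without GFP, and the GFP-low cells between them were not analysed here. Whether the pigs were themselves clones or progeny of clones is not stated in the sources used here.

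Connexins assemble in rings to form a hemichannel, and hemichannels of adjoining cells dock into a gap junction that passes ions, second messengers and small metabolites. GJA1 (Cx43) is widespread in the epidermis and dermis. GJB2 (Cx26) and GJB6 (Cx30) are known from hair follicles and sweat glands, and their mutations cause skin, hair and hearing disorders, among them hidrotic ectodermal dysplasia with hair loss for GJB6. GJB5 is known from differentiating layers of the epidermis. Pannexins resemble connexins in shape but do not usually form junctions between cells. PANX1 releases ATP from the cell, and PANX3 is best known from cartilage, bone and skin.

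The 4 libraries held between 30890232 and 32598670 counts. LGR5 itself had 4551 (pig 88R) and 6224 (pig 95R) counts in LGR5-high, against 36 and 109 in the LGR5-negative libraries, which is the direction of the sort on its reporter. Levels are given below as CPM, the count relative to the library size after scaling by the TMM method of edgeR. Reads per gene were not divided by transcript length, so a CPM value is compared between libraries and never between genes. Genes were called where edgeR's quasi-likelihood test gave a Benjamini-Hochberg adjusted p under 0.05, which was the case for 44.7% of the 15980 genes tested, 22.7% as higher and 22% as lower in LGR5-high. The shares rose to 55.7%, 28.5% and 27.2% when the pig entered as a replicate block. A test of each gene by itself on log2(CPM + 1), without shared estimates of the spread, called 6.55% of the genes, 3.4% as higher and 3.14% as lower. Because calls were this common with edgeR, the size of a change says more about a gene than its call. With 1 library of each population per pig, the spread behind the p-values is that between 2 pigs. The edgeR test shares its estimate of that spread across genes, and its main model leaves out the pig.

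GJA1, GJB2 and GJB6 were higher in LGR5-high, by 4.22-fold, 12.8-fold and 217-fold. GJB5 and PANX1 were lower, by 1.49-fold and 1.70-fold, and PANX3 had no count in any library. Of the 6 genes, 5 passed the filter on low counts with at least 49 counts in every library, 3 of them were called higher and 2 lower, and in each of the 5 the LGR5-high and LGR5-negative values did not overlap. The 3 higher members rose at least 4-fold, which 8.79% of all tested genes did with a call. Non-overlap alone was common, at 76.6% of all tested genes. The values are those of a mixed population of cells, so that fewer cells with a transcript and less of the transcript per cell cannot be told apart.

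**Figure D1:**
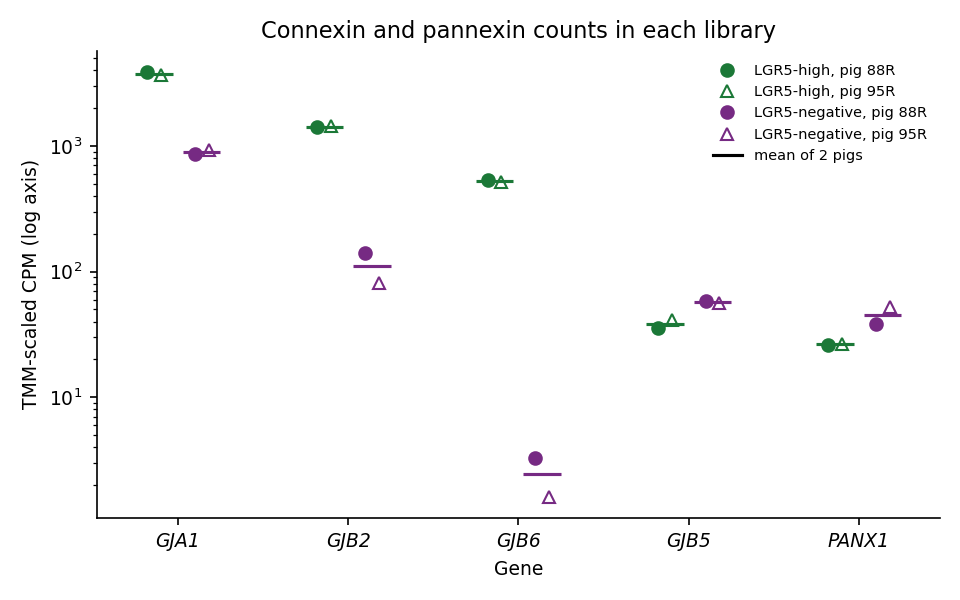
TMM-scaled CPM on a log axis for 5 genes in each of the 4 libraries, with filled circles for pig 88R, open triangles for pig 95R and bars for the mean of the 2 pigs. GJB6 falls from over 500 CPM in LGR5-high to 3.26 and 1.62 CPM in LGR5-negative, while GJB5 and PANX1 lie slightly higher in LGR5-negative, and heights are not comparable between genes because transcript length differs.

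The counts of GJA1 were 133289 in pig 88R and 120563 in pig 95R for LGR5-high, and 24573 and 27810 for LGR5-negative. In CPM these were 3877 and 3649 against 862 and 920. Both LGR5-high values lay far above both LGR5-negative values, and within each population the pigs were close to each other. LGR5-high had a mean of 3763 ± 161 CPM (SD, n = 2 pigs), and LGR5-negative one of 891 ± 41.0 CPM. The log2 fold change was 2.08 with a standard error of 0.0950 (edgeR adjusted p = 8.87e-05). Pig 88R alone gave 2.17 and pig 95R alone 1.99.

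Among the GJB genes the largest difference was that of GJB6, whose transcript was nearly missing from the LGR5-negative cells. For LGR5-high, pig 88R gave 18547 counts and pig 95R 17066, which were 540 and 517 CPM. The LGR5-negative libraries held 93 and 49 counts, which were 3.26 and 1.62 CPM. The LGR5-negative level was low but measurable, since 3 counts, taken as the smallest signal, were 0.105 and 0.0993 CPM in these libraries. The exact 95% Poisson intervals, which cover counting error only, ran from 75.1 to 113.9 counts in pig 88R and from 36.3 to 64.8 counts in pig 95R. The log2 fold change of GJB6 was 7.76 with a standard error of 0.287 (edgeR adjusted p = 6.19e-05). Only 28 of the 15980 tested genes had a larger fitted increase, and the fitted value of those with no count in LGR5-negative depends on a small prior count.

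GJB2, the next neighbour of GJB6 in the RefSeq annotation of Sscrofa11.1, was also higher in LGR5-high but kept a substantial level in LGR5-negative. For LGR5-high, pig 88R gave 48453 counts and pig 95R 47188, or 1409 and 1428 CPM. The LGR5-negative libraries had 4029 and 2455 counts, or 141 and 81.2 CPM. The 2 LGR5-high values were nearly equal, whereas the LGR5-negative values stood apart by more than counting error, with exact 95% Poisson intervals of 137 to 146 and 78.1 to 84.5 CPM. The log2 fold change was 3.67 with a standard error of 0.271 (edgeR adjusted p = 3.20e-04). GJB2 was not called by the test of each gene by itself on log2(CPM + 1).

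GJB2 and GJB6 differed between the pigs in the same way. From pig 88R to pig 95R their LGR5-negative level dropped by 0.80 and 0.98 on the log2 scale, while their LGR5-high level moved by 0.02 and -0.06. As a result their log2 fold changes were 3.32 and 7.34 in pig 88R and 4.14 and 8.26 in pig 95R. Such a gap between the pigs was on the wide side, since 89.6% and 91.5% of the tested genes had a gap as small or smaller. The LGR5 level of the LGR5-negative libraries went the other way, with 1.26 CPM in pig 88R and 3.61 CPM in pig 95R. The summed CPM of the suprabasal epidermal markers was 66971 and 57812 in these libraries, and that of the melanocyte markers was 86.7 and 263.5. Follicle stem cell and outer root sheath markers were at 856 and 1499, most of it KRT15 with 715 and 1324 CPM. Langerhans and other immune markers were at 126 and 182. Whether the makeup of the LGR5-negative sort had a part in the difference between the pigs was not tested.

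GJB5 was lower in LGR5-high by a small amount. LGR5-high had 35.8 CPM in pig 88R and 41.0 CPM in pig 95R, and LGR5-negative had 58.4 and 56.2 CPM, from 1232, 1355, 1663 and 1697 counts. The populations did not overlap, and the gap between them was wider than that between the pigs. The log2 fold change was -0.58 with a standard error of 0.104 (edgeR adjusted p = 0.00723), and 18.9% of all tested genes had a larger decrease. Pig 88R alone gave -0.70 and pig 95R alone -0.45, and the fit with library size only gave -0.35. GJB5 was not called by the test of each gene by itself.

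PANX1 was lower in LGR5-high as well, with a less stable call. For LGR5-high, pig 88R gave 904 counts and pig 95R 885, or 26.3 and 26.8 CPM, and the LGR5-negative libraries had 1084 and 1585 counts, or 38.0 and 52.5 CPM. Here the 2 LGR5-high libraries agreed within counting error and the spread lay in LGR5-negative. The log2 fold change was -0.77 with a standard error of 0.166 (edgeR adjusted p = 0.0133). Pig 88R alone gave -0.53 and pig 95R alone -0.97. The call was lost without the LGR5-high library of pig 88R (log2 fold change -0.76, edgeR adjusted p = 0.0586), without that of pig 95R (-0.78, adjusted p = 0.0635), and in the test of each gene by itself.

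PANX3 had 0 counts in all 4 libraries, which, with 3 counts taken as the limit, allows a level of up to 0.0873 to 0.105 CPM depending on the library. The exact 95% Poisson interval reaches 3.69 counts, or 0.107 to 0.129 CPM. PANX3 was therefore not detectable at this depth in either population, and no test was possible.

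**Figure D2:**
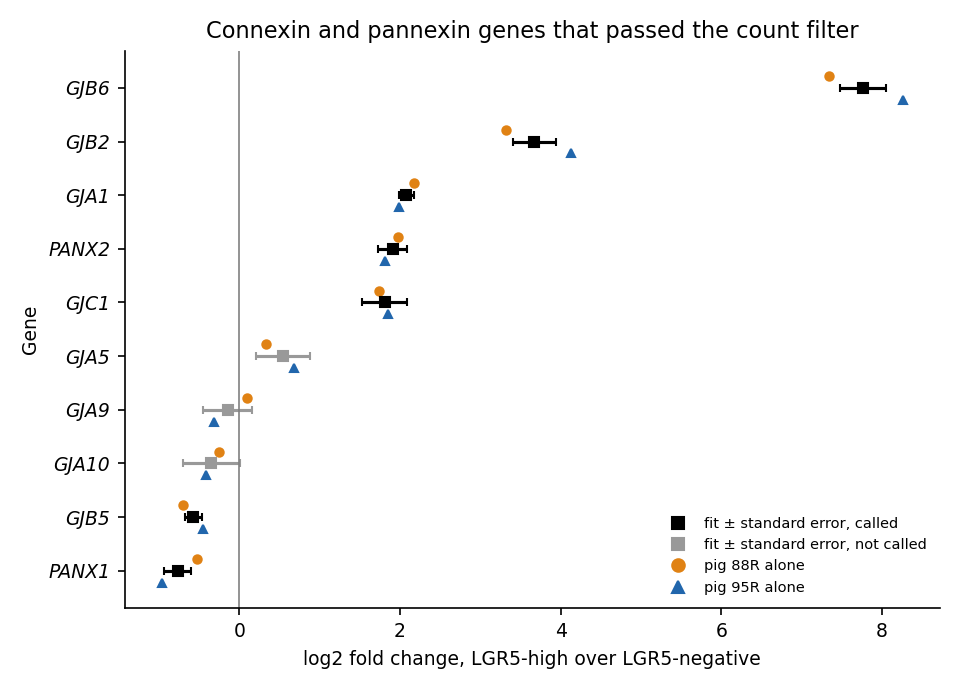
Log2 fold change of LGR5-high over LGR5-negative for 10 connexin and pannexin genes that passed the count filter, with squares for the fit and its standard error, circles for pig 88R and triangles for pig 95R. GJB6, GJB2, GJA1, PANX2 and GJC1 stand to the right of 0 in both pigs and GJB5 and PANX1 to the left, and the 3 grey genes were not called.

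The table held 17 further connexin and pannexin genes, 23 in all, which were taken by the start of their names. Together 14 of the 23 passed the filter, and 8 of these 14 were called, 5 as higher and 3 as lower, which is 57.1% beside 44.7% of all tested genes. Their median log2 fold change was 0.30, beside 0.02 over all tested genes. The 14 include the 5 tested members, all called, which were proposed with earlier results of these data known. Of the further genes alone 9 passed the filter, and 3 of these (33.3%) were called, 2 as higher and 1 as lower. The median log2 fold change of these 9 was 0.06. The 8 that did not pass and were not PANX3 had at most 11 counts in any library. Among the genes without a call, GJA5 had a log2 fold change of 0.54, GJA9 one of -0.15 and GJA10 one of -0.35.

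PANX2 rose in LGR5-high while PANX1 fell. PANX2 is a pannexin best known from the brain, and its counts were 370 in pig 88R and 338 in pig 95R for LGR5-high, and 77 and 87 for LGR5-negative. The fitted log2 fold change of PANX2 was 1.91 ± 0.178 (standard error, edgeR adjusted p = 6.87e-04). GJC1 (Cx45), known from smooth muscle and the heart, had 416 and 289 counts in LGR5-high against 102 and 72, a log2 fold change of 1.81 ± 0.282 (standard error, edgeR adjusted p = 0.00431).

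GJC1 and GJA1 are also connexins of smooth muscle, and smooth muscle markers moved with them. The summed CPM of 6 such markers was 404 and 292 in LGR5-high against 15.4 and 15.3 in LGR5-negative, and 4 of the 5 that passed the filter were called higher. Nearly all of that sum was TAGLN, with 389 and 277 CPM in LGR5-high. The remaining markers had fewer counts than TAGLN, with DES at 0 to 2 counts in every library. MYH11 was at 5.18 and 5.51 CPM in LGR5-high against 2.53 and 3.14 CPM in LGR5-negative. CNN1 was at 4.83 and 4.57 against 0.386 and 0.331 CPM, and ACTA2 at 3.90 and 4.30 against 0.772 and 1.16 CPM. MYH11, CNN1 and ACTA2 were called higher, and ACTG2 was not called. Any part of smooth muscle cells in the GJA1 and GJC1 values was not tested. Endothelial markers, which go with GJA4 and GJA5, were at 11.5 and 12.8 summed CPM in LGR5-high and 23.9 and 25.3 in LGR5-negative, and GJA4 had 1 to 5 counts per library.

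Most suprabasal markers were lower in LGR5-high, and most follicle stem cell and outer root sheath markers were higher. The summed CPM of the suprabasal list, led by KRT1 and KRT10, was 6701 and 6127 in LGR5-high against 66971 and 57812 in LGR5-negative, and 8 of its 10 tested genes were called lower. Of the 11 follicle stem cell and outer root sheath genes, 9 were called higher, among them SOX9 and LHX2, although LGR5 is one of them and had been sorted on. KRT15 and NFATC1 were not called, with log2 fold changes of 0.76 and 0.19. Inner root sheath markers were at 1463 and 1174 summed CPM in LGR5-high against 576 and 623, and of 6 tested 5 were called higher and 1 lower. The lower one, GATA3, made up most of the LGR5-negative sum, with 280 and 271 CPM in LGR5-high against 500 and 531. The higher ones changed more than the sum, with KRT25 at 738 and 536 against 52.8 and 57.3 CPM and TCHH at 280 and 254 against 12.1 and 21.2. Basal epidermal markers were at 29994 and 31805 against 38283 and 35184 summed CPM, with 1 of 7 called higher and 4 lower. Hair shaft markers were at 262 and 190 against 469 and 358, and sebaceous and sweat gland markers at 1198 and 1078 against 1033 and 981, with 5 of 7 called higher. Fibroblast markers were at 254 and 472 against 359 and 235, with 2 of 7 called higher and 5 lower. COL1A1, called higher, made up most of their LGR5-high sum, with 142 and 331 against 94.0 and 37.3 CPM. Nerve and Schwann cell markers were at 67.3 and 86.8 against 22.9 and 31.04, with 2 of 6 tested called higher and 2 lower. Melanocyte markers were at 64.5 and 64.2 against 86.7 and 263.5, with 0 of 8 called higher and 5 lower. DCT and MITF, neither of them called, made up most of the melanocyte sum in LGR5-high. Langerhans and other immune markers were at 12.01 and 9.17 against 126 and 182, with 0 of 6 tested called higher and 5 lower.

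GJB2 and GJB6, which rose together, are neighbours in the genome. By gene order in RefSeq (Sscrofa11.1, taken for names, order and overlap of genes alone), GJB2 lies between GJA3 and GJB6 among protein-coding genes, and CRYL1 follows GJB6. GJA3 had at most 1 count per library. CRYL1, named here after its values were seen, was higher by 0.34 ± 0.104 on the log2 scale (standard error, edgeR adjusted p = 0.0439). Neither the 4 connexin members nor PANX1 and PANX3 overlapped another annotated gene in that annotation.

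Ratios between 2 genes of the same library do not depend on the scaling between libraries, and they show how unequal the changes were. The counts of GJB6 divided by those of GJB2 gave 0.383 (pig 88R) and 0.362 (pig 95R) in LGR5-high and 0.0231 and 0.0200 in LGR5-negative. The ratio was thus 16.6-fold higher in LGR5-high in pig 88R and 18.1-fold in pig 95R, although the level of each gene in LGR5-negative differed between the pigs. GJB2 divided by GJA1 gave 0.364 and 0.391 against 0.164 and 0.0883. PANX2 divided by PANX1 gave 0.409 and 0.382 against 0.0710 and 0.0549.

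The 20 connexin genes together made up 0.643% and 0.614% of the named counts in LGR5-high and 0.111% and 0.112% in LGR5-negative. Summed over these genes, LGR5-high had 5821 ± 159 CPM (SD, n = 2 pigs), 4.84 times the 1202 ± 4.01 CPM of LGR5-negative. The makeup of that sum changed as well. GJB2 gave 23.8% and 25.02% of the connexin counts in LGR5-high against 11.7% and 6.77% in LGR5-negative. GJB6 gave 9.09% and 9.05% in LGR5-high, and in LGR5-negative 0.271% (95% Wilson interval 0.221% to 0.332%) in pig 88R and 0.135% (0.102% to 0.179%) in pig 95R. These intervals cover counting error only. In the other direction, the share of GJB5 was 0.604% and 0.719% against 4.84% and 4.68%, while its CPM was 1.49-fold lower. A share also depends on the summed counts, which were larger in LGR5-high. GJA1 held the largest share of counts in every library, 65.4% and 63.9% against 71.6% and 76.7%. These are shares of reads and not of transcripts, since transcript lengths were not used.

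**Figure D3:**
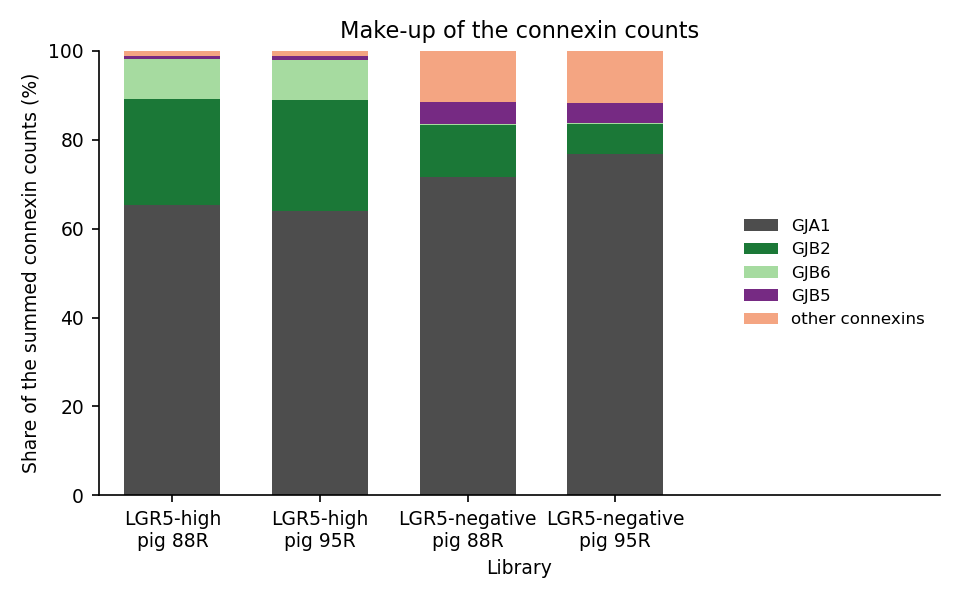
Share of the summed counts of 20 connexin genes, in percent, for each of the 4 libraries, with 1 stacked bar per library. GJB2 and GJB6 together take a far greater part of the LGR5-high bars, while GJB5 takes 4.68% to 4.84% of the LGR5-negative bars and 0.604% to 0.719% of the LGR5-high bars.

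Set against all tested genes, GJB6 was at the far end of the distribution, GJB2 and GJA1 were in its upper tail, and GJB5 and PANX1 were in its shoulder. The middle 50% of the tested genes had log2 fold changes from -0.41 to 0.55, and 5% were above 2.89. A larger increase than that of GJB2 was found for 3.08% of the tested genes and a larger one than that of GJA1 for 8.61%. A larger decrease than that of PANX1 was found for 14.2%.

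**Figure D4:**
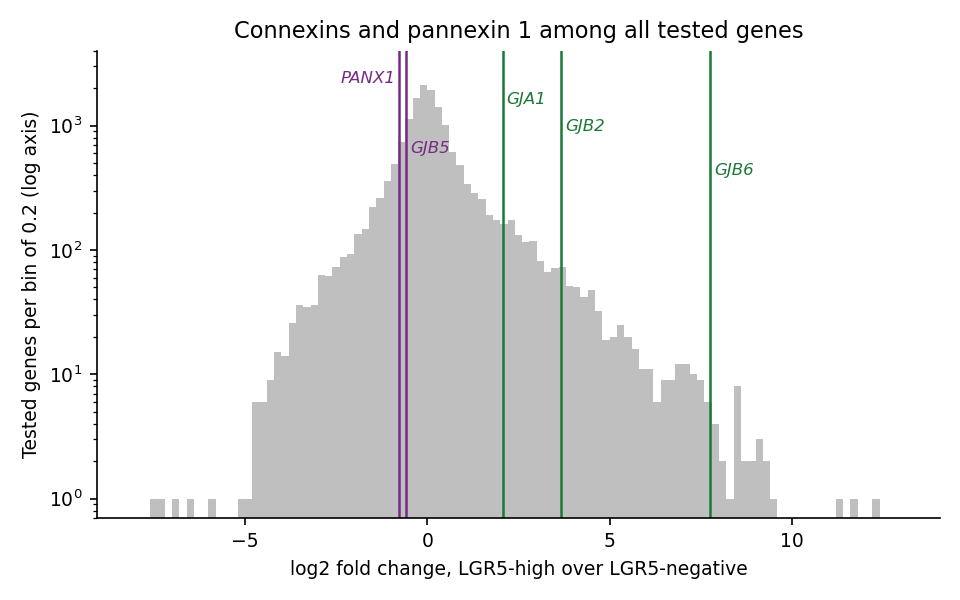
Distribution of the log2 fold change of LGR5-high over LGR5-negative over 15980 tested genes, in bins of 0.2 with the number of genes on a log axis, and vertical lines for 5 genes. GJB6 at 7.76 is near the right end, and GJB2 at 3.67 and GJA1 at 2.08 are in the right tail. GJB5 at -0.58 and PANX1 at -0.77 are in the left shoulder.

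The genes with the most similar profile over the 4 libraries were found by the root mean square difference of centred log2 CPM, among 11087 candidate genes with a symbol and a mean of at least 100 counts. With 4 libraries such likeness is a description only. GJB6 was closest to FOXE1, a transcription factor of the forkhead family, at 0.22, followed by ADRA2A at 0.34 and CAPN6 at 0.37, the last of which is listed at 0 in both LGR5-negative libraries. FOXE1 had 80.2 (pig 88R) and 79.2 (pig 95R) CPM in LGR5-high and 0.561 and 0.298 CPM in LGR5-negative. GJB2 was closest to GRB14 at 0.03, FHOD3 at 0.08 and ATP12A at 0.16. GJA1 was closest to GNB1L at 0.03 and to ADGRG1 and TSPAN9, both at 0.05. GJB5 was closest to C2H5orf63, CDC26 and BPHL, all at 0.01. PANX1 was closest to the ubiquitin ligase gene NEDD4L at 0.02, ATMIN at 0.03 and TNS1 at 0.04.

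Genes that act on gap junctions or on the ATP released by pannexins were read from 6 lists. Across them 68 of 78 genes passed the filter, of which 14 were called higher and 21 lower, with a median log2 fold change of -0.10. The share of calls was 22.7% higher and 22% lower over all tested genes.

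Of 18 tested genes of connexin assembly, trafficking and scaffolding, 5 were higher and 5 lower in LGR5-high, with a median log2 fold change of -0.04. The median turned to 0.05 with upper quartile scaling (6 higher, 3 lower) and to 0.18 with library size only (6 higher, 2 lower), and 3 genes were lower without the LGR5-negative library of pig 88R or the LGR5-high library of pig 95R. The increases included DBN1, which encodes drebrin, an actin-binding partner of GJA1. It had 96.1 and 82.5 CPM in LGR5-high against 3.93 and 4.30 CPM, a log2 fold change of 4.44 ± 0.135 (standard error, edgeR adjusted p = 4.19e-05). CDH2, the gene of N-cadherin, had 348 and 497 counts against 4 and 30, a log2 fold change of 4.44 ± 0.652 (standard error, edgeR adjusted p = 0.00344), which was 6.44 without the LGR5-negative library of pig 95R and 3.65 without that of pig 88R. Among the lower genes, the tight junction scaffold TJP3 had -1.23 (adjusted p = 0.00648) and CNST, which encodes the connexin-sorting protein consortin, had -0.72 (edgeR adjusted p = 0.00565).

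Of 20 tested genes of connexin turnover and phosphorylation, 3 were higher and 7 lower, with a median of -0.16. This split depended on the scaling, with 5 higher and 5 lower under upper quartile scaling and 6 higher and 4 lower with library size only, where the median was 0.07. Without either LGR5-high library 4 genes were lower. NEDD4, a ubiquitin ligase that binds GJA1, fell from 138 and 149 CPM in LGR5-negative to 32.0 and 31.3 CPM in LGR5-high, a log2 difference of -2.18 ± 0.0852 (standard error, edgeR adjusted p = 6.62e-05). The ubiquitin ligase gene WWP1 had a log2 fold change of 0.78, and PRKACA, the catalytic subunit of protein kinase A, one of 0.46, with adjusted p-values of 0.00107 and 0.00674 from edgeR.

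Several ATP receptor genes were lower in LGR5-high. Of the 10 tested, edgeR's quasi-likelihood test called 5 lower and 0 higher, no gene was higher at an unadjusted p under 0.05, and DESeq2 and limma-voom also called 0 higher and 4 lower each. The number called lower was 2 without the LGR5-high library of pig 88R, 3 without that of pig 95R, 3 without the LGR5-negative library of pig 95R, and 1 in the test of each gene by itself. The median log2 fold change was -0.68, and it ran from -1.22 without the LGR5-high library of pig 88R to -0.45 in the test of each gene by itself. P2RX7, an ATP-gated cation channel, had 7.56 (pig 88R) and 10.2 (pig 95R) CPM in LGR5-high and 58.4 and 77.3 CPM in LGR5-negative, a log2 fold change of -2.94 ± 0.207 (standard error, edgeR adjusted p = 2.75e-04). P2RX1 had 6 and 4 counts against 51 and 15, a log2 fold change of -2.91 (edgeR adjusted p = 0.0265). The call of P2RX1 was lost with limma-voom and in the test of each gene by itself. It was also lost without either LGR5-high library and without the LGR5-negative library of pig 88R. The log2 fold change of P2RX1 was -1.73 without the LGR5-negative library of pig 88R and -3.57 without that of pig 95R. P2RX1 and P2RX7 are also receptors of immune cells, and the summed CPM of the immune markers given above was lower in LGR5-high in the same way. Its part in these values was not tested.

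Of 10 tested ectonucleotidase and adenosine receptor genes, 4 were higher and 2 lower, with a median of 0.53. Without the LGR5-high library of pig 95R 2 were higher and the median was 0.32, and without the LGR5-negative library of pig 88R it was 0.24. ENPP1, which splits ATP into AMP and pyrophosphate, had 27.4 and 20.1 CPM in LGR5-high against 1.97 and 3.04 CPM, a log2 fold change of 3.24 ± 0.271 (standard error, edgeR adjusted p = 4.83e-04). NT5E, which turns AMP into adenosine, had 84 and 139 counts against 31 and 31, a log2 fold change of 1.65 (adjusted p = 0.0140), and its call was lost without the LGR5-high library of pig 95R (edgeR adjusted p = 0.0905). The 2 genes called lower were ADA with -1.32 (edgeR adjusted p = 0.0474) and ENTPD2 with -0.70 (edgeR adjusted p = 0.0420). Both calls were lost under upper quartile scaling, library size only, limma-voom and the test of each gene by itself. Both were also lost without either LGR5-high library. ADA also lost its call without the LGR5-negative library of pig 95R (-0.64) and ENTPD2 without that of pig 88R (-0.33).

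The last lists held other channels that pass ATP or anions, and the caspases that open PANX1 together with membrane scramblases. Of 5 tested large-pore channel genes, edgeR's quasi-likelihood test called 2 lower and 0 higher (1 higher at an unadjusted p under 0.05, 0 with DESeq2 and with limma-voom). With the pig as a replicate block it called 3 lower and 1 higher. LRRC8E, a subunit of the volume-regulated anion channel, had a log2 fold change of -1.05 (edgeR adjusted p = 4.11e-04). LRRC8A, the subunit which that channel requires, had -0.42 (adjusted p = 0.0394), and its call was lost under upper quartile scaling, with library size only and without either library of pig 95R. Of 5 tested genes of PANX1 cleavage and phospholipid scrambling, edgeR called 2 higher and 0 lower (0 lower at an unadjusted p under 0.05, 0 with DESeq2 and limma-voom, 1 with the replicate block). The scramblase gene XKR4 had 56 and 61 counts against 5 and 4 (log2 fold change 3.47, edgeR adjusted p = 0.00150).

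**Figure D5:**
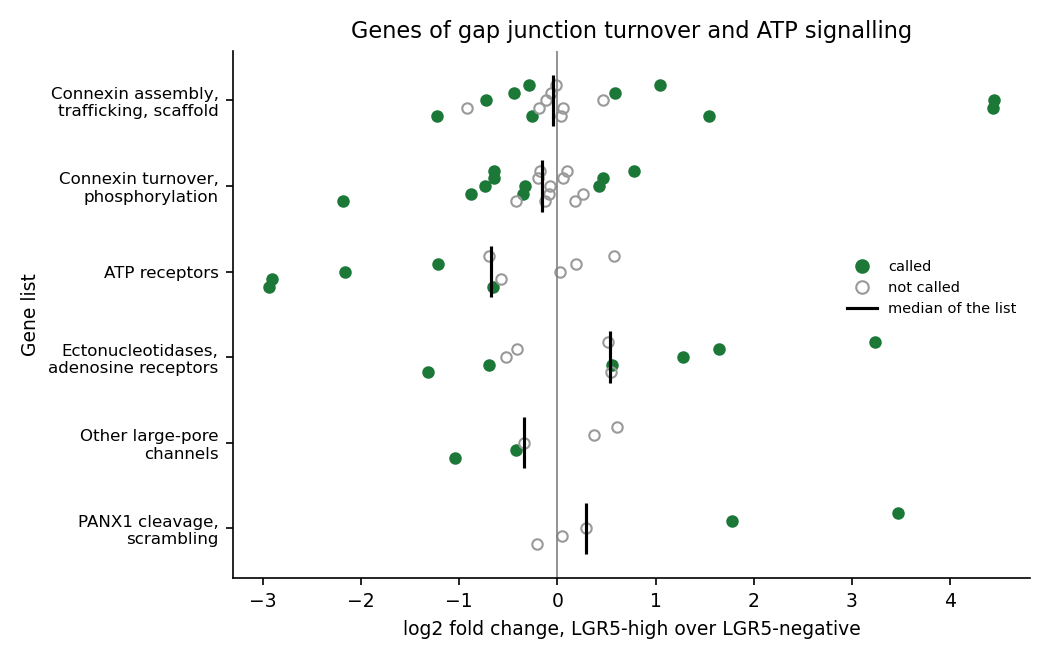
Log2 fold change of LGR5-high over LGR5-negative for the tested genes of the 6 lists, 1 point per gene, filled where called at an adjusted p-value under 0.05, with a bar at the median of each list. The ATP receptors have their median at -0.68 with no called gene to the right of 0, and the 2 points farthest right are CDH2 and DBN1, both at 4.44.

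The split between higher and lower calls over all genes depended on the scaling between libraries. Of all calls 50.9% were higher with TMM and 70.2% with library size only, and the median over all tested genes, on the log2 scale, went from 0.02 to 0.24. GJB5 and PANX1, whose changes were the smallest of the 5, were still called lower with library size only.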

How the data were processed

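RNA from LGR5-high and LGR5-negative epidermal cells of 2 pigs was sequenced after poly(A) selection, with 1 library per population and pig. Raw counts by gene symbol, not normalized, were deposited by the authors. The submitters' processing notes name Trimmomatic 0.36, STAR 2.5.2b and featureCounts of Subread 1.5.2. The genome build, annotation and strand setting are not given in the sources used here. Reads without a gene name, 0.360% to 0.626% of a library, were left out.

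The comparison used edgeR 4.0.16 under R 4.3.3: filterByExpr (minimum count 10, minimum total 15), TMM scaling and the quasi-likelihood test, with population alone in the model. P-values were 2-sided and Benjamini-Hochberg adjusted over all tested genes. The standard error is the log2 fold change divided by the square root of the F statistic. Log2 fold changes of single pigs used a prior count of 2. Student's t-test, the test in the study's methods, used log2(CPM + 1). Alternatives were other scalings and filters, the pig as a replicate block, DESeq2 1.42.0, limma-voom (limma 3.58.1), that t-test and leaving out each library. Both libraries of a pig came from 1 animal, and across genes the 2 deviated from their population means with a correlation of 0.370, so the numbers pair the samples. Libraries of 1 population differed by more than counting noise (chi-square per degree of freedom 21.7 and 23.7).

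The genes and lists were chosen with earlier results of these data known. Named genes are the members, all genes whose names start as theirs do, up to 2 called genes in each direction per list that moved alike in both pigs, and the 3 genes nearest in profile to each member. RefSeq gene positions served only for gene order and overlap. Sequences were not analysed here, and neither were KRT14, KRT17 and some other listed genes. Some genes that the rule names are not reported here, though the counts over lists and over the gene family include them.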

Additional observations from a re-analysis of the deposited data

How the results depend on the processing

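Over the 14 alternatives GJA1 and GJB6 kept their direction and their call, with log2 fold changes from 2.02 to 2.30 and from 7.31 to 8.34. With the pig as a replicate block no call of the 5 tested members or of the other connexin and pannexin genes changed, and the log2 fold changes were 2.08 for GJA1, 3.72 for GJB2, -0.58 for GJB5, 7.78 for GJB6 and -0.75 for PANX1. Over all genes the block called 4562 higher and 4342 lower. Scaling by library size alone called 5473 genes higher and 2326 lower, against 3632 and 3508 with TMM. The list genes called lower went from 21 to 11 with library size only and to 13 with upper quartile scaling. The t-test called 544 genes higher and 502 lower, and of the list genes 3 higher and 2 lower. Of the other connexin and pannexin genes it called 1 higher and 1 lower. Of the members it called 2 higher and 0 lower (3 and 1 at an unadjusted p under 0.05). Its log2 fold changes were 3.71 for GJB2, -0.57 for GJB5 and -0.73 for PANX1, none of them called. Leaving out each library in turn gave 2279 to 3169 higher and 2139 to 3004 lower genes over all genes, 1 to 2 lower members, 11 to 17 lower list genes, and a log2 fold change of -0.99 to -0.53 for PANX1. The counts were lowest without an LGR5-high library, 2340 and 2279 higher genes without that of pig 88R and 95R. GJA9, not called, was 0.075 with library size only and ran from -0.43 to 0.19 (without the LGR5-negative library of pig 95R) when libraries were left out. The cause of these changes was not tested, except that leaving out a library leaves fewer samples. With 2 libraries per population, the t-test also lost the calls of LGR5 and GJC1.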
